A study of Mus musculus with 20 samples.

Results

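Serum miRNAs of old Ames dwarf mice were compared with those of old normal mice. The comparison uses 10 of the 20 samples of the series, 5 labelled dwarf and old and 5 labelled normal and old, chosen by these labels alone. All 10 are serum of female mice aged 21 to 22 months. The strain is given as Ames dwarf for both genotypes, with a background that is heterogeneous, and the labels name no allele for either. The other 10 samples are serum of 5 dwarf and 5 normal females aged 5 to 6 months, and they enter the estimate of spread. Nothing in the labels says that each sample came from a separate mouse, so p-values measure the spread between these samples, which may be technical. Of 1191 mature miRNA names with a read, the 360 with enough reads were tested.

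Ames dwarf mice make little or no growth hormone, prolactin and thyroid-stimulating hormone. They stay small and live long. miRNAs are short RNAs that guide Argonaute proteins to messenger RNAs, mostly by pairing through the seed, the bases close to their 5′ end. In serum they come from blood cells, platelets, vessel walls and organs, carried in vesicles or on proteins or freed when cells break.

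The mature sequences below, from RefSeq (GRCm38.p6), belong to miRNAs on which the results turn. They are written 5′ to 3′ with the seed, bases 2 to 8, in capitals. The first set was higher in old dwarf serum. It holds members of the imprinted Dlk1-Dio3 locus, the miR-34 and miR-449 family, abundant serum miRNAs and the scarce miR-344d-3p of chromosome 7. It is shown because miR-410-3p and miR-344d-3p share a seed, as do miR-34b-3p with miR-34c-3p and miR-449a-5p with miR-34a-5p, the last of which did not pass the test.
miR-127-3p: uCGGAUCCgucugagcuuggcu
miR-136-5p: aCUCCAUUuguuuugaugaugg
miR-434-3p: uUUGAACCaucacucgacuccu
miR-410-3p: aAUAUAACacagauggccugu
miR-344d-3p: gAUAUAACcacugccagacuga
miR-34b-3p: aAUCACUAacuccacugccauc
miR-34c-3p: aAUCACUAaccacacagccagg
miR-449a-5p: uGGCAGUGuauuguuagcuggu
miR-34a-5p: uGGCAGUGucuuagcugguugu
miR-199a-3p: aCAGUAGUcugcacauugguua
miR-101a-3p: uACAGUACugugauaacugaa
miR-30a-5p: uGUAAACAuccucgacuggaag

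The second set was lower in old dwarf serum, or shares a seed with a miRNA that was. It is shown because the members of each seed pair, miR-146a-5p with miR-146b-5p, miR-27a-3p with miR-27b-3p and miR-222-3p with miR-221-3p, had different values.
miR-342-3p: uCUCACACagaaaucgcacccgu
miR-146a-5p: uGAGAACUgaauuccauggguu
miR-146b-5p: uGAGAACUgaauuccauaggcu
miR-27a-3p: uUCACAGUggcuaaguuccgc
miR-27b-3p: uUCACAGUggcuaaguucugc
miR-222-3p: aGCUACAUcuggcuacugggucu
miR-221-3p: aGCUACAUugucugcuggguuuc
miR-191-5p: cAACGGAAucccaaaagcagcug
miR-423-3p: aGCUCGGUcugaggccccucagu

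The old libraries held 1343137 to 3736000 miRNA counts, a number that did not separate the genotypes (exact permutation test, adjusted p 0.405). The red-cell miRNA miR-486a-5p took 28.4 ± 3.14% of counts in old dwarf and 30.7 ± 1.62% in old normal mice (SD, n = 5, exact permutation p 0.175). miR-486b-5p has identical counts, so the same reads enter each total again under that name. The part of reads from miR-486 was thus larger than these percentages. Totals and CPM levels count reads shared between names more than once. The haemolysis index, the log2 ratio of red-cell miR-451a to the stable miR-23a-3p, was higher in old dwarf serum, with 5.34, 4.90, 5.205, 6.09 and 5.37 in dwarf replicates 1 to 5 and 4.83, 3.13, 4.71, 4.20 and 4.65 in normal replicates 1 to 5. The groups did not overlap, and the exact permutation p of 0.00794 is the smallest that 5 against 5 samples can give (adjusted p 0.0238 over 3 measures).

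Old dwarf replicates 2 and 3 stood apart from replicates 1, 4 and 5, on the side of the normal libraries. They held the most counts of the dwarf group, 3597213 and 2543180 against 1343137 to 1965999. Their composition factors, which edgeR sets from the bulk of miRNAs, were 0.776 and 0.698, against 1.02 to 1.26 in the other dwarf libraries and 0.674 to 0.906 in normal libraries. The level of miR-486a-5p was 212333, 391695, 471911, 234859 and 257364 CPM in dwarf replicates 1 to 5 and 362823, 399052, 493978, 325701 and 378606 CPM in normal replicates 1 to 5 (CPM, counts scaled to a common library size with TMM factors, the unit of every level below). The part of depth, red-cell RNA and this split of the libraries in the results below was not tested, and results are given with and without single libraries where that matters.

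In old dwarf serum 58 of the 360 tested miRNAs were higher (16.1%) and 37 were lower (10.3%) than in old normal serum, by edgeR's quasi-likelihood test with Benjamini-Hochberg adjustment. The higher group was led by the Dlk1-Dio3 locus, which supplied 26 of the 58, followed by miR-34 and miR-449 miRNAs, miR-199a and miR-199b, and abundant miR-101a-3p, miR-143-3p and miR-30a-5p. The lower group held miR-150, miR-342, miR-155 and miR-146a, known from lymphocytes and inflammation, and abundant miR-191-5p, miR-151-3p and miR-423-3p. Differences were larger among the higher miRNAs, with a median of log2 2.74 and 42 of 58 over 4-fold, than among the lower ones, with a median of log2 -1.35 and 6 of 37 over 4-fold. Many of the higher miRNAs were scarce: 19 of 58 had means under 10 CPM in both old groups. The same held for 1 of 37 lower ones and 78 of 360 tested. CPM values of the 2 groups did not overlap for 28 miRNAs higher (7.78%) and 17 lower (4.72%) in dwarf serum.

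**Figure D1:**
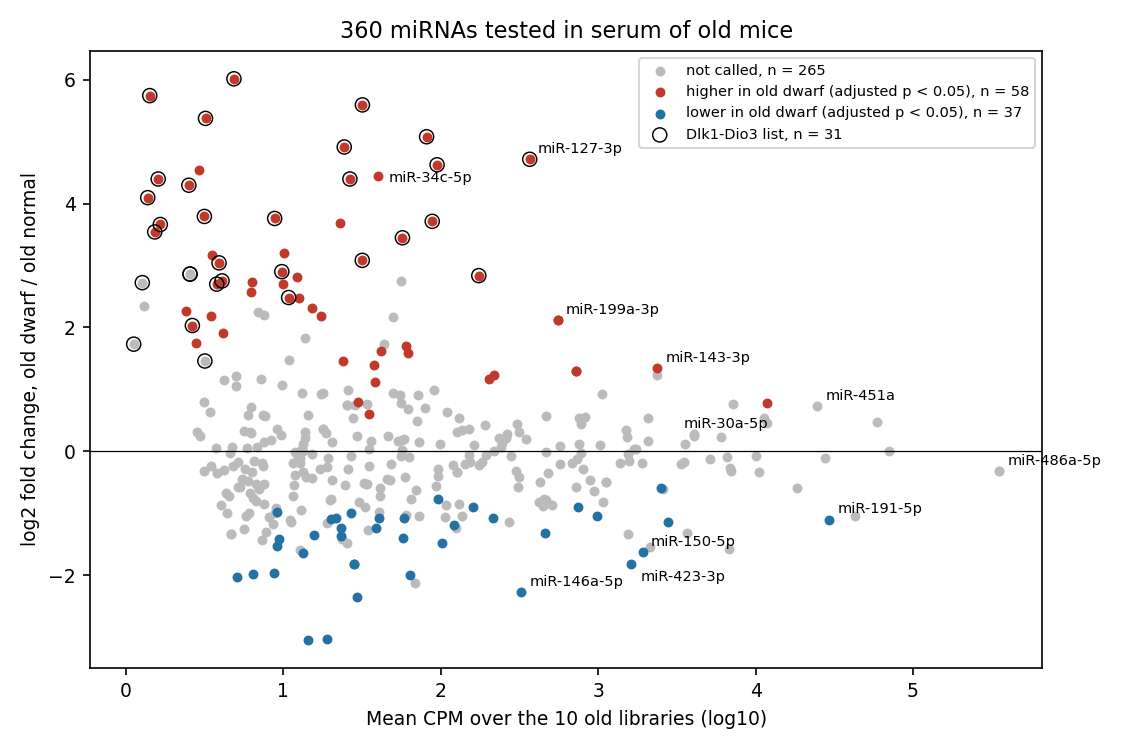
Log2 fold change of old dwarf over old normal serum (vertical axis) against the mean CPM of the 10 old libraries (horizontal axis, log10) for 360 miRNAs, with called miRNAs in red and blue. Ringed points are the 31 tested names of the Dlk1-Dio3 list, all above 0, and most higher miRNAs lie at low to middle levels while miR-191-5p, miR-423-3p and miR-150-5p are lower at high levels.

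The called miRNAs followed the split of the dwarf libraries. Dwarf replicates 2 and 3 were the lowest pair of the dwarf group for 50 of the 58 higher miRNAs (86.2%, against 29.7% of all tested). They were the highest pair for 25 of the 37 lower miRNAs (67.6%, against 35% of all tested). Without dwarf replicate 2 the counts were 78 higher and 65 lower, and without replicate 3 they were 77 and 48. Without dwarf replicates 1, 4 or 5 they were 39 and 14, 41 and 14, and 39 and 12. Among normal libraries, replicate 1 was the highest for 15 of the 37 lower miRNAs, against 84 of 360, and without it the counts were 45 and 20. With the haemolysis index as a covariate 0 miRNAs passed in edgeR, while 66 had a raw p under 0.05, against 163 without the covariate.

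**Figure D2:**
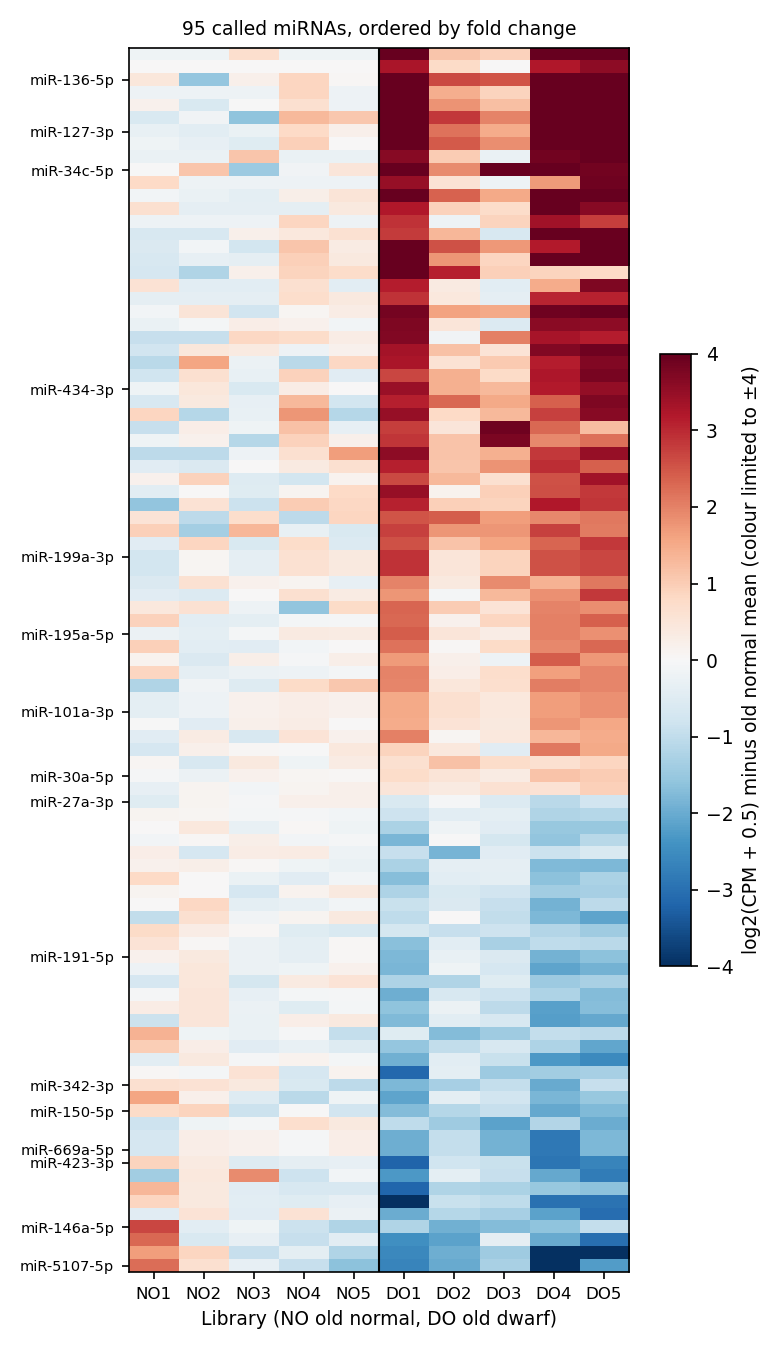
Log2(CPM + 0.5) minus the old normal mean for the 95 called miRNAs (rows, ordered by fold change; some named) in the 5 old normal and 5 old dwarf libraries (columns), colour limited to ±4. Old dwarf replicates 2 and 3 have paler colours than replicates 1, 4 and 5 in most miRNAs, and old normal replicate 1 stands out among the lowest ones.

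The Dlk1-Dio3 miRNAs formed the largest block of higher miRNAs. This imprinted locus on chromosome 12 encodes many miRNAs on the maternal chromosome beside the long RNAs Meg3, Rian and Mirg. Of 86 names with a read, 31 were tested, among them miR-299a-3p and miR-299b-3p, which share all reads. All 31 had a positive log2 difference and 26 were called, with a median of log2 3.66. miR-369-5p had no read in any old normal library. At its bound of log2 3.30 (floor of 3 counts over the group) the median was log2 3.54. The median of all 360 was log2 -0.06. The filter keeps a name with enough reads in as many libraries as a group holds, whichever these are. Names near 0 in old normal serum, such as miR-154-5p with at most 1 read per library there, passed through libraries where they were high. The shared sign and the median are therefore not independent of the filter. Called members came from each stretch of the locus (GRCm38, GENCODE M21): 4 of 4 before Rtl1 (109571990 to 109586146), 7 of 8 opposite the Rtl1 exon (109590447 to 109595388), 1 of 1 in an intron of Rian, and 14 of 18 in the miR-379 to miR-410 cluster (109710175 to 109743795). The medians of the 3 larger stretches were close, log2 3.92, 3.74 and 3.56 in that order.

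The most abundant member, miR-127-3p, lies opposite Rtl1, whose transcript it is known to help silence (chromosome 12, 109592846 to 109592915). Old dwarf replicates 1 to 5 held 1117, 117, 71.6, 932 and 1310.3 CPM, and old normal replicates 1 to 5 held 20.6, 18.8, 21.1, 44.7 and 29.2 CPM. All 5 dwarf libraries lay above all 5 normal ones, but replicates 2 and 3 were far nearer to the normal range than the others (log2 4.72 ± 0.95 SE, adjusted p 0.00304).

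From the same stretch, miR-434-3p stood at 457, 113, 102.5, 382.1 and 479 CPM in dwarf replicates 1 to 5 and 36.7, 57.3, 27.4, 51.8 and 41.9 CPM in normal replicates 1 to 5 (log2 2.84 ± 0.53 SE, adjusted p 0.00304). Its other arm, miR-434-5p, stood at 69.4, 13.6, 7.32, 60.7 and 102.9 and 2.01, 1.79, 1.59, 2.72 and 3.43 CPM in the same order (log2 4.40 ± 0.83 SE, adjusted p 0.00304). For miR-136-5p the values were 69.4, 8.60, 7.89, 92.8 and 134.2 and 1.51, 0, 1.19, 2.18 and 1.03 CPM (log2 5.59 ± 1.10 SE, adjusted p 0.00304). In these 3 miRNAs the groups did not overlap and dwarf replicates 2 and 3 were the lowest of their group. miR-136-3p did overlap, since dwarf replicate 3 held 20.9 CPM and normal replicate 4 held 22.3 CPM (log2 3.71 ± 0.85 SE, adjusted p 0.0056), and miR-431-5p did not (log2 3.76 ± 0.75 SE, adjusted p 0.00304).

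At the far end of the locus, miR-410-3p stood at 138, 29.4, 27.04, 144.7 and 185 CPM in dwarf replicates 1 to 5 and 8.55, 13.4, 5.17, 9.81 and 11.3 CPM in normal replicates 1 to 5 (log2 3.45 ± 0.68 SE, adjusted p 0.00304). miR-541-5p was at 258, 39.8, 25.9, 234 and 355 and 6.03, 5.37, 4.77, 13.6 and 6.87 CPM (log2 4.63 ± 0.94 SE, adjusted p 0.00304). miR-381-3p was at 209, 16.5, 10.7, 156 and 400.0 and 5.03, 2.69, 4.37, 7.08 and 3.78 CPM (log2 5.08 ± 1.04 SE, adjusted p 0.00308), and at log2 4.34 without dwarf replicate 5. The same 3 dwarf libraries, 1, 4 and 5, were high for each of them, and no library overlapped between the groups. The differences of miR-411-5p and miR-300-3p were log2 4.91 ± 0.9999 and 3.08 ± 0.69 (adjusted p 0.00304 and 0.0056). miR-381-3p and miR-300-3p share a run of 16 bases, so reads could have been split between them. Summed over the 31 names, the locus held 2888, 440.1, 319, 2513 and 3722 CPM in dwarf replicates 1 to 5 and 102, 136.1, 93.8, 185 and 137 CPM in normal replicates 1 to 5. The members of this locus given here with their differences were called in all 20 fits that left out 1 library.

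**Figure D3:**
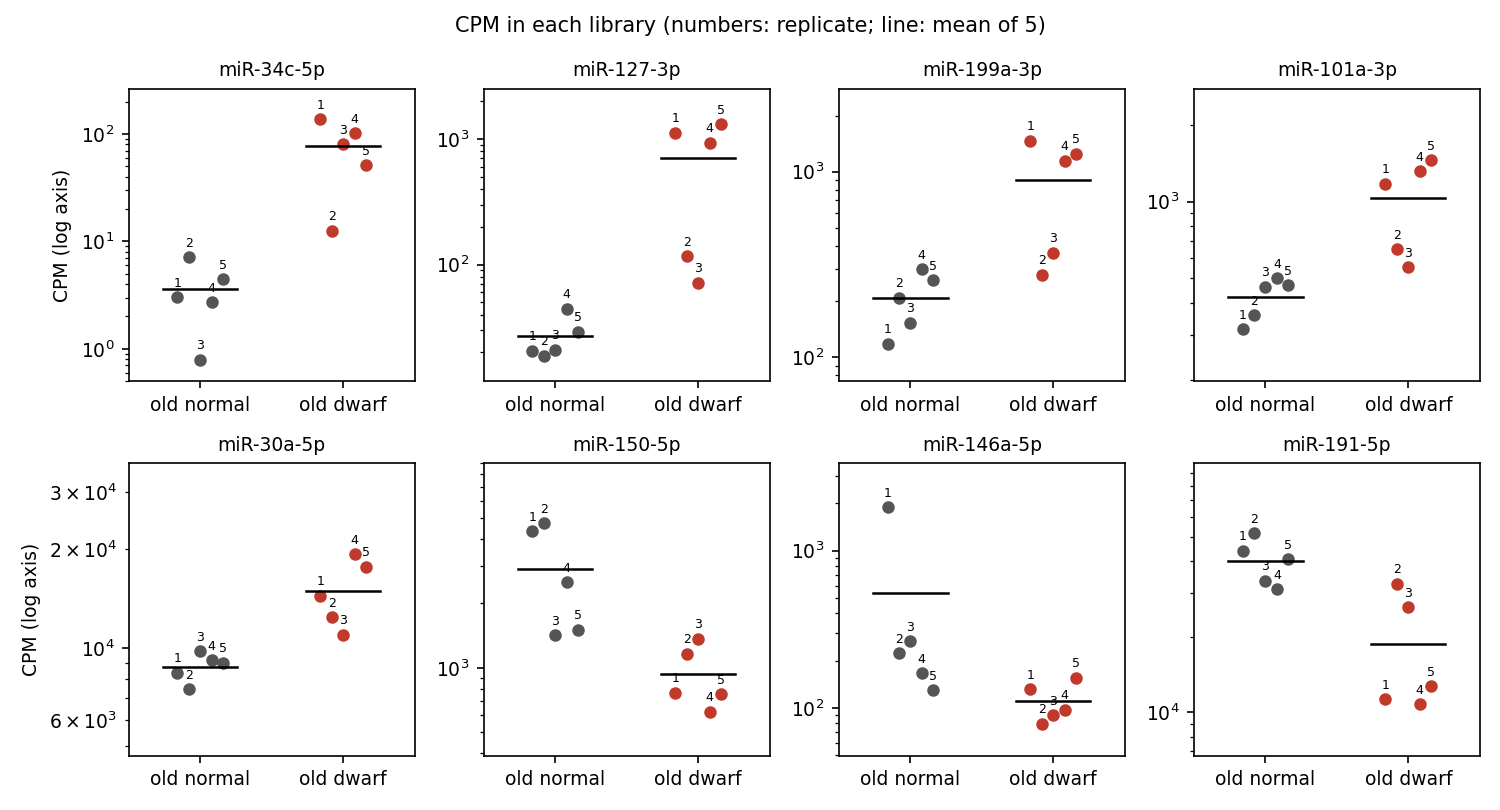
CPM of 8 miRNAs (log axis) in each old normal (grey) and old dwarf (red) library, numbered by replicate, with lines at the means of 5. Dwarf replicates 2 and 3 lie nearest to the normal libraries for miR-127-3p, miR-199a-3p, miR-101a-3p, miR-30a-5p and miR-191-5p, and normal replicate 1 lies far above the others for miR-146a-5p.

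Of the miR-34 and miR-449 family, p53-responsive or ciliated-cell miRNAs that restrain the cell cycle, 4 of 5 tested members were higher. Mir34c (chromosome 9, 51103034 to 51103110) and Mir34b lie side by side opposite an intron of Btg4. miR-34c-5p stood at 138, 12.5, 80.6, 102 and 51.2 CPM in dwarf replicates 1 to 5 and 3.02, 7.16, 0.795, 2.72 and 4.46 CPM in normal replicates 1 to 5, so that the lowest dwarf library exceeded the highest normal one (log2 4.45 ± 0.78 SE, adjusted p 0.00304). Here dwarf replicate 3 was not among the low libraries. It was the highest for both other products of these hairpins: miR-34b-3p stood at 19.9, 5.73, 37.7, 10.2 and 12.4 and 2.01, 2.69, 0.795, 4.90 and 2.75 CPM (log2 2.71 ± 0.55 SE, adjusted p 0.00304). miR-34c-3p stood at 12.4, 2.15, 28.2, 8.87 and 3.98 and 0.503, 1.79, 1.19, 3.81 and 1.03 CPM, with dwarf replicate 2 inside the normal range (log2 2.74 ± 0.61 SE, adjusted p 0.00547, log2 2.04 without dwarf replicate 3). miR-449a-5p, from an intron of Cdc20b, was at 5.38, 5.02, 2.82, 3.41 and 3.98 and 1.01, 0, 1.19, 0 and 1.37 CPM (log2 2.27 ± 0.59 SE, adjusted p 0.0113). miR-34a-5p, with the seed of miR-449a-5p, overlapped between the groups, at 10.8, 2.15, 1.13, 6.82 and 13.4 and 5.53, 0.896, 2.78, 2.72 and 3.78 CPM (log2 1.06 ± 0.71 SE, adjusted p 0.25).

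miR-199a and miR-199b, found in platelets and in mesenchymal cells, gave the most abundant of the large increases. miR-199a-3p and miR-199b-3p have the same sequence and share all reads. They stood at 1467, 278, 366, 1145 and 1247 CPM in dwarf replicates 1 to 5 and 119, 209.6, 153.8, 298.6 and 260.2 CPM in normal replicates 1 to 5 (log2 2.11 ± 0.57 SE, adjusted p 0.0121). Dwarf replicate 2 lay inside the normal range, replicate 3 just above it, and the other 3 at least at 1145 CPM. miR-199a-5p was also highest in dwarf replicates 1, 4 and 5, with replicates 2 and 3 inside the normal range, at 37.7, 8.24, 7.89, 40.9 and 32.3 and 1.01, 6.27, 1.99, 8.72 and 7.55 CPM (log2 2.31 ± 0.64 SE, adjusted p 0.0133). miR-199b-5p was called as well, at log2 3.18, but not without dwarf replicate 1 (log2 2.83, adjusted p 0.0601). Mir199a-2 and Mir214 lie in the same host RNA, Dnm3os, on chromosome 1 (162217814 to 162217923 and 162223368 to 162223477). miR-214-5p, chosen after its values were seen, was called at log2 1.92 ± 0.66 (adjusted p 0.0409) but not without dwarf replicates 1, 4 or 5, normal replicates 1, 2, 3 or 5 or young dwarf replicate 2 (adjusted p 0.0533 to 0.149). miR-214-3p stood at log2 0.95 ± 0.49 (adjusted p 0.134).

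Among the abundant higher miRNAs, miR-30a-5p and miR-101a-3p kept the groups apart. miR-30a-5p (chromosome 1, 23272269 to 23272339, between genes) stood at 14419, 12387, 10962, 19319 and 17680.3 CPM in dwarf replicates 1 to 5 and 8395, 7478, 9743, 9169 and 8998 CPM in normal replicates 1 to 5 (log2 0.77 ± 0.21 SE, adjusted p 0.0135; adjusted p 0.0551 without dwarf replicate 4). Its other arm, miR-30a-3p, was higher by log2 1.23 ± 0.32 (adjusted p 0.0113). miR-101a-3p (chromosome 4, 101346945 to 101347027, in an exon of E130102H24Rik), a miRNA that restrains the histone methyltransferase gene Ezh2, stood at 1178, 651, 553, 1316 and 1459 and 315, 357, 463, 499.6 and 469.9 CPM (log2 1.29 ± 0.35 SE, adjusted p 0.0121). It shares a run of 19 bases with miR-101c, which had nearly the same values, so their reads cannot be told apart. Its other arm miR-101a-5p was higher too (log2 2.19 ± 0.64, adjusted p 0.0196, 0.051 without dwarf replicate 1).

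Of 5 tested names on the list of endothelial and smooth muscle miRNAs 1 was called, miR-143-3p, and all 5 had positive differences (median log2 0.54). miR-143-3p, a smooth muscle miRNA, stood at 4446, 1577, 1833, 4740.1 and 4464 CPM in dwarf replicates 1 to 5 and 500.9, 1037, 804, 1966 and 2407 CPM in normal replicates 1 to 5, with dwarf replicates 2 and 3 inside the normal range (log2 1.34 ± 0.46 SE, adjusted p 0.0381). It missed the threshold without dwarf replicates 1, 4 or 5, normal replicates 1, 2 or 3 or young dwarf replicate 2 (adjusted p 0.0533 to 0.108). Its neighbours miR-145a-5p and miR-145a-3p stood at log2 0.54 ± 0.44 and 0.92 ± 0.49 (adjusted p 0.35 and 0.149). miR-195a-5p, a cell cycle miRNA of the miR-15 and miR-16 family, was at 110.4, 28.3, 24.8, 81.9 and 72.5 and 17.1, 15.2, 19.1, 26.2 and 25.1 CPM, with dwarf replicate 3 inside the normal range (log2 1.62 ± 0.45 SE, adjusted p 0.0133, 0.0525 without dwarf replicate 1). Of 10 names of the miR-99, miR-100 and miR-125 families 2 were higher, both from miR-125b: miR-125b-1-3p kept the groups apart (log2 2.18 ± 0.56 SE, adjusted p 0.0108) and miR-125b-5p did not (log2 1.16 ± 0.43 SE, adjusted p 0.0484). The latter missed the threshold without dwarf replicates 1, 4 or 5, normal replicates 1, 2, 3 or 5, young dwarf replicates 2, 3, 4 or 5 or young normal replicate 3 (adjusted p 0.0536 to 0.14).

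Some scarce miRNAs outside these groups were also higher. miR-455-5p, from an intron of the collagen gene Col27a1 (chromosome 4, 63256851 to 63256932), stood at 17.2, 3.94, 6.76, 15.7 and 10.4 CPM in dwarf replicates 1 to 5 and 1.01, 0.896, 1.59, 2.18 and 2.75 CPM in normal replicates 1 to 5 (log2 2.57 ± 0.58 SE, adjusted p 0.0056). Another 3, chosen after their values were seen, are miR-218-5p from an intron of Slit2, miR-224-5p from an intron of Gabre and miR-344d-3p. Their differences were log2 3.21 ± 0.85, 2.48 ± 0.64 and 2.81 ± 0.74 (adjusted p 0.0113, 0.0109 and 0.0113), and all were called in each of the 20 fits with 1 library left out. For miR-218-5p the split of the dwarf libraries was as wide as for the Dlk1-Dio3 miRNAs: 31.2, 2.87, 1.13, 28.7 and 27.8 CPM in dwarf replicates 1 to 5 against 1.51, 1.79, 2.38, 2.18 and 1.72 CPM in normal ones. miR-592-5p, from an exon of the glutamate receptor gene Grm8, showed another pattern, at 172, 26.9, 5.63, 5.46 and 4.97 and 1.51, 0.896, 3.18, 5.45 and 4.81 CPM. Its difference rested largely on dwarf replicate 1 (log2 3.69 ± 0.85 SE, adjusted p 0.00581). Without that library it was log2 1.72 and still called (adjusted p 0.0442).

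On the lower side, all 5 tested names of the lymphocyte list were called, with a median of log2 -1.63 (4 of 5 with library totals). miR-150-5p, a miRNA of mature B, T and NK cells (chromosome 7, 45121757 to 45121821, between genes), stood at 765, 1166, 1367, 624 and 756 CPM in dwarf replicates 1 to 5 and 4339.8, 4740.4, 1418, 2516 and 1504 CPM in normal replicates 1 to 5 (log2 -1.63 ± 0.38 SE, adjusted p 0.00601). No dwarf library reached the lowest normal one, but normal replicates 1 and 2 were far above the others. Its other arm, miR-150-3p, was also highest in normal replicates 1 and 2, at 3.77, 6.09, 9.01, 0 and 0.994 and 81.5, 45.7, 13.1, 19.1 and 10.6 CPM (log2 -3.04 ± 0.74 SE, adjusted p 0.0076, log2 -2.39 without normal replicate 1).

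The host gene of miR-342-3p is Evl, which holds it in an intron (chromosome 12, 108658620 to 108658718). This miRNA stood at 38.8, 54.1, 70.4, 33.4 and 72.5 CPM in dwarf replicates 1 to 5 and 214.2, 205.99, 180.4, 89.3 and 66.3 CPM in normal replicates 1 to 5 (log2 -1.49 ± 0.32 SE, adjusted p 0.00479). Here dwarf replicates 3 and 5 exceeded normal replicate 5. miR-5107-5p, encoded in an exon of the antigen presentation gene Cd74, was at 2.15, 3.58, 6.20, 0 and 2.98 and 77.4, 25.1, 12.7, 8.17 and 4.81 CPM (log2 -3.05 ± 0.72 SE, adjusted p 0.00683, log2 -1.995 without normal replicate 1). miR-155-5p, induced in activated lymphocytes and macrophages, was at 13.5, 5.38, 6.76, 9.55 and 8.94 and 51.3, 17.02, 15.9, 18.5 and 9.61 CPM (log2 -1.35 ± 0.40 SE, adjusted p 0.0196, log2 -0.78 and adjusted p 0.0988 without normal replicate 1). That call was also lost with library totals (adjusted p 0.109), with no filter (0.0554) and in the old samples alone (0.0789). Normal replicate 1 was the highest normal library for miR-342-3p, miR-5107-5p and miR-155-5p. The summed lymphocyte list held 823, 1235, 1459, 666.6 and 842 CPM in dwarf replicates 1 to 5 and 4764, 5034, 1639.8, 2652 and 1596 CPM in normal replicates 1 to 5, so normal replicates 1 and 2 held most. In bulk serum, fewer cells releasing a miRNA and less release per cell cannot be told apart.

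miR-146a-5p, a feedback inhibitor of NF-kB signalling, was a case of 1 library deciding much of a value. It stood at 131, 79.6, 90.1, 97.6 and 156 CPM in dwarf replicates 1 to 5 and 1896, 223.9, 267, 166 and 129 CPM in normal replicates 1 to 5 (log2 -2.27 ± 0.58 SE, adjusted p 0.0103). Without normal replicate 1 the difference was log2 -0.82 with an adjusted p of 0.0563, and in the old samples alone the adjusted p was 0.0518. Of 7 tested names on the inflammation list 3 were lower, miR-146a-5p, miR-155-5p and miR-21a-3p (log2 -0.90, adjusted p 0.0405), and 0 were higher. With DESeq2 or with RLE factors in edgeR 1 was called higher, and with library totals 2 were lower. The call of miR-21a-3p was lost without dwarf replicates 1, 4 or 5, normal replicates 1, 2, 3, 4 or 5 or young dwarf replicates 2, 3 or 5 (adjusted p 0.0502 to 0.152). The other arm, miR-21a-5p, was not called (log2 -0.33).

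The most abundant lower miRNA was miR-191-5p, encoded with miR-425 in an exon of 4833445I07Rik (Mir191: chromosome 9, 108568319 to 108568392) and plentiful in blood cells and platelets. It stood at 11256, 32504, 26212, 10755 and 12711 CPM in dwarf replicates 1 to 5 and 44115, 51746, 33426, 31002 and 40676 CPM in normal replicates 1 to 5 (log2 -1.10 ± 0.37 SE, adjusted p 0.0337). Dwarf replicate 2 lay inside the normal range, and the call was lost without dwarf replicates 1, 4 or 5, normal replicates 1, 2, 4 or 5 or young dwarf replicates 2 or 3 (adjusted p 0.0544 to 0.137). Its neighbours moved with it: miR-425-3p was lower by log2 -1.09 ± 0.31 with no overlap (adjusted p 0.0147), and miR-425-5p by log2 -1.04 ± 0.34 (adjusted p 0.0314). Normal replicate 1 held the most of both. The call of miR-425-3p was lost without dwarf replicates 1 or 5 or normal replicate 1 (adjusted p 0.0522 to 0.0552), and that of miR-425-5p without dwarf replicates 1, 4 or 5, normal replicates 1 or 2 or young dwarf replicate 2 (adjusted p 0.0577 to 0.125).

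miR-423-3p, from an intron of Nsrp1 (chromosome 11, 77078064 to 77078172), stood at 254, 1351, 1248, 308 and 377.1 CPM in dwarf replicates 1 to 5 and 4319, 2968, 1614, 1798 and 1845 CPM in normal replicates 1 to 5 (log2 -1.83 ± 0.59 SE, adjusted p 0.0301). Although no library overlapped, dwarf replicates 2 and 3 were close below the normal range and the other 3 were far lower. The call was lost without dwarf replicates 1, 4 or 5, normal replicates 1 or 2 or young dwarf replicate 2 (adjusted p 0.0533 to 0.107). The other arm, miR-423-5p, showed the same split but overlapped, at 755, 3969.9, 4504, 566 and 766 and 4512, 7762, 4392, 4633 and 5033 CPM (log2 -1.32 ± 0.61 SE, adjusted p 0.0994), and was called without dwarf replicates 2 or 3 (adjusted p 0.0369 to 0.0493).

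Some other abundant or blood-cell miRNAs had calls that were lost without any of several libraries. miR-151-3p, from an intron of Ptk2, miR-181b-5p and miR-27a-3p were lower by log2 -1.15 ± 0.41, -1.07 ± 0.35 and -0.59 ± 0.20 (adjusted p 0.0459, 0.0314 and 0.0418). miR-181b-5p was the single call among 6 tested miR-181 names. The calls were lost in 14, 8 and 11 of the 20 fits with 1 library left out: for miR-151-3p without dwarf replicates 1, 4 or 5, normal replicates 1, 2, 3, 4 or 5, young dwarf replicates 2, 3, 4 or 5 or young normal replicates 2 or 3 (adjusted p 0.0509 to 0.163), for miR-181b-5p without dwarf replicates 1, 4 or 5, normal replicates 1, 2, 4 or 5 or young dwarf replicate 2 (adjusted p 0.0576 to 0.108) and for miR-27a-3p without dwarf replicates 1, 3, 4 or 5, normal replicates 2, 3, 4 or 5 or young dwarf replicates 2, 3 or 5 (adjusted p 0.0535 to 0.174). The vessel and blood cell miRNA miR-222-3p and the myeloid miR-223-5p, both chosen after their values were seen, were lower by log2 -1.31 ± 0.47 and -1.08 ± 0.39 (adjusted p 0.0444 and 0.0459). They lost their calls in 12 and 15 of these fits, for miR-222-3p without dwarf replicates 1, 4 or 5, normal replicates 2, 3, 4 or 5, young dwarf replicates 2, 3, 4 or 5 or young normal replicate 3 (adjusted p 0.0508 to 0.152) and for miR-223-5p without dwarf replicates 1, 3, 4 or 5, normal replicates 2, 3, 4 or 5, young dwarf replicates 2, 3, 4 or 5 or young normal replicates 3, 4 or 5 (adjusted p 0.0506 to 0.155). Those of miR-27a-3p and miR-223-5p were also lost with library totals (adjusted p 0.276 and 0.0703), with no filter (0.231 and 0.13195), with a mean of at least 10 CPM and in the old samples alone. The other arm of miR-223-5p, miR-223-3p, was not called (log2 -0.77), but was called without dwarf replicate 2 (log2 -1.13, adjusted p 0.0106).

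Steadier among the lower miRNAs were some of middling level. miR-669a-5p, of the large cluster in an intron of Sfmbt2 on chromosome 2, shares all reads with miR-669p-5p and stood at 10.8, 21.9, 11.3, 5.46 and 11.9 CPM in dwarf replicates 1 to 5 and 26.7, 51.9, 48.5, 41.4 and 51.5 CPM in normal replicates 1 to 5 (log2 -1.82 ± 0.39 SE, adjusted p 0.00381). No library overlapped. miR-501-3p, from an intron of Clcn5 on the X chromosome, was at 46.3, 39.1, 41.7, 32.8 and 27.8 and 129, 91.4, 76.7, 53.9 and 48.4 CPM (log2 -1.09 ± 0.29 SE, adjusted p 0.0113), and miR-1249-3p had a difference of log2 -1.37 ± 0.36 (adjusted p 0.0113). miR-335-3p is encoded within the imprinted gene Mest (intron) and was at 9.15, 6.81, 3.94, 8.19 and 4.47 and 10.6, 17.02, 17.9, 30.5 and 25.4 CPM (log2 -1.64 ± 0.45 SE, adjusted p 0.0133). For these 4 the groups did not overlap and the call held in all 20 fits with 1 library left out. That of miR-501-3p missed the threshold with library totals (adjusted p 0.0571) or with no filter (0.0597). The epithelial miR-205-5p, also called (log2 -1.198 ± 0.39, adjusted p 0.0299), was not called without dwarf replicates 1, 4 or 5 or normal replicates 2, 4 or 5 (adjusted p 0.0651 to 0.0902), nor with library totals (0.0649).

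The erythroid list had no calls with TMM factors, while the myeloid and platelet list had calls in both directions. Of 7 erythroid names 0 were called in edgeR (median log2 -0.32, 3 with a raw p under 0.05): miR-451a stood at 31608, 24349, 24993, 41159.7 and 30967 CPM in dwarf replicates 1 to 5 and 20552, 8408, 23189.9, 17782 and 22115 CPM in normal replicates 1 to 5 with no overlap (log2 0.73 ± 0.28 SE, adjusted p 0.055), and it was called without dwarf replicates 2 or 3 or young normal replicates 1 or 3 (adjusted p 0.0365 to 0.0439). The other abundant member, miR-486a-5p, was at log2 -0.32 ± 0.30 (adjusted p 0.417). The 4 negative names of the list are the arms of miR-486a and miR-486b, which share all reads in each arm. The list median thus counts these reads more than once. The 3 positive names are miR-451a, miR-144-3p (log2 0.57) and miR-144-5p (log2 0.63). With DESeq2, RLE factors or library totals 3 erythroid names were called higher, so this count depends on the scaling. Summed, the list held 244951 to 499470 CPM in dwarf and 345146 to 519321 CPM in normal libraries. Of 12 myeloid and platelet names 4 were higher, all of them miR-199a or miR-199b, of which miR-199a-3p and miR-199b-3p share all reads. Another 3 of this list were lower, miR-191-5p, miR-191-3p and miR-223-5p. That list summed to 22121, 60151, 50563, 23235 and 24292 CPM in dwarf replicates 1 to 5 and 68699, 80988, 57914, 56942 and 68927 CPM in normal replicates 1 to 5, again with dwarf replicates 2 and 3 near the normal range.

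Muscle and liver miRNAs gave 0 calls in edgeR with TMM factors, a count that depends on the scaling. All 7 muscle names had positive differences (median log2 1.83), 4 with a raw p under 0.05. DESeq2 called 3 higher and edgeR with RLE factors 2. miR-133a-3p, a miRNA of skeletal and heart muscle, stood at 2911, 2436, 1974, 3781 and 5555 CPM in dwarf replicates 1 to 5 and 314, 1352, 1097, 3969 and 323.02 CPM in normal replicates 1 to 5 (log2 1.24 ± 0.63 SE, adjusted p 0.133). Normal replicate 4 was the exception among normal libraries, and without it the difference was log2 2.03 with an adjusted p of 0.0202. Of 11 hepatocyte names 9 had positive differences (median log2 0.54), 5 with a raw p under 0.05. DESeq2 called 5 higher, and edgeR called 2 with RLE factors and 2 with library totals. miR-122-5p, the main hepatocyte miRNA, was at 12.9, 3.94, 9.58, 347 and 117 and 13.6, 6.27, 37.0, 10.4 and 4.81 CPM, high in dwarf replicates 4 and 5 alone (log2 2.74 ± 1.24 SE, adjusted p 0.095). Its difference was log2 1.17 without dwarf replicate 4 and 3.48 without normal replicate 3. These levels are low for a miRNA so abundant in liver, and whether its reads were lost in counting was not tested.

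**Figure D4:**
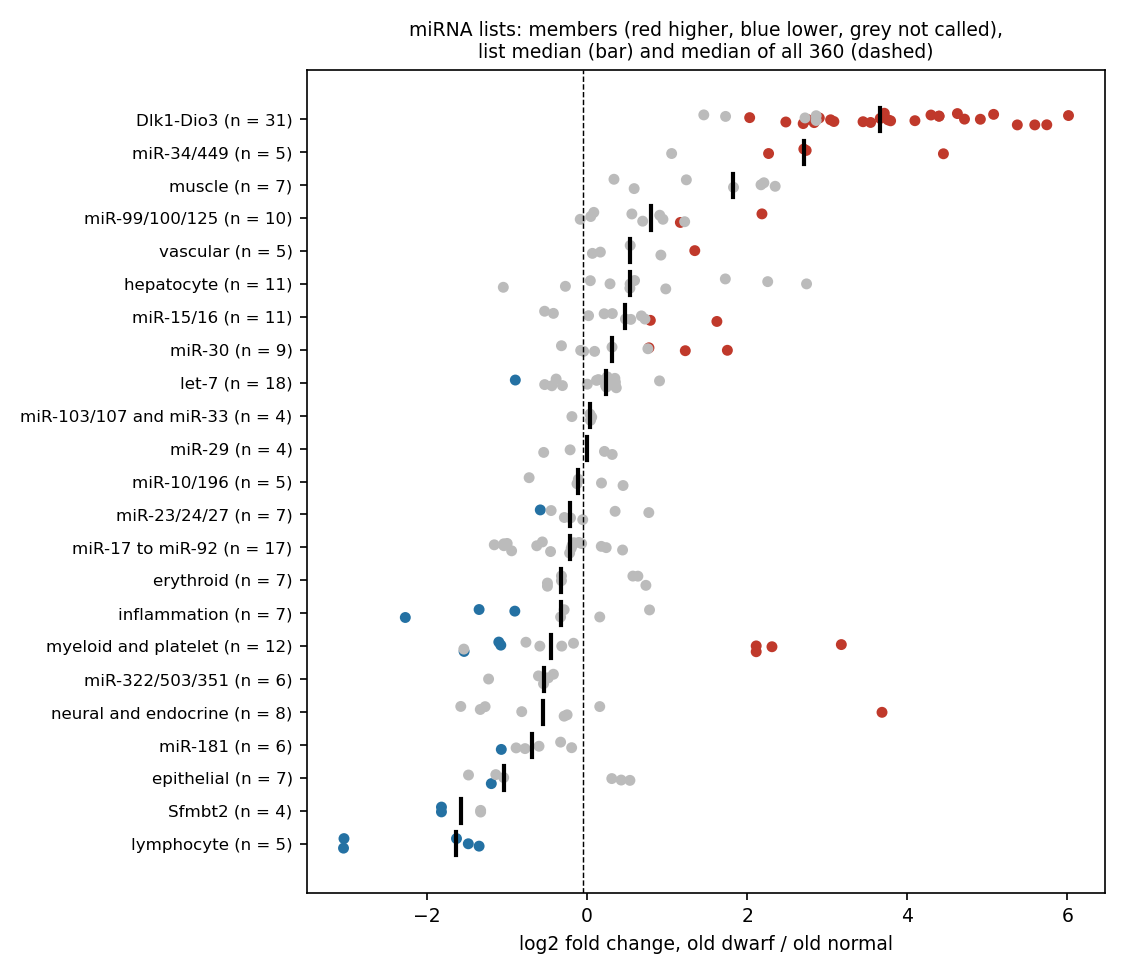
Log2 fold change of old dwarf over old normal serum for the tested members of each miRNA list with at least 4 of them (points; red higher, blue lower, grey not called), with the list median as a bar and the median of all 360 as a dashed line. The Dlk1-Dio3 list (median log2 3.66) and the lymphocyte list (-1.63) lie at the ends, while miR-29 and let-7 lie close to 0.

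Calls in most of the broad families varied with the scaling. Of 18 let-7 names 1 was lower, of 17 names of the miR-17 to miR-92 clusters 0 were called, and of 4 miR-29 names 0 were called in edgeR, with medians of log2 0.24, -0.22 and 0.0012. In the latter 2 families 3 and 0 had a raw p under 0.05, and DESeq2 called 1 and 0. Of the let-7 names 3 were higher with DESeq2, 2 with RLE factors and 2 with library totals, which also gave 2 higher and 1 lower name of the miR-17 to miR-92 clusters. For miR-17 to miR-92 and miR-29 the medians change sign, to log2 0.025 with library totals and -0.027 with upper-quartile factors. Of 9 miR-30 names 3 were higher (median log2 0.31), namely both arms of miR-30a and miR-30c-2-3p, and 4 with DESeq2, RLE factors or library totals. Of 11 names of the miR-15 and miR-16 family 2 were higher, miR-195a-5p and miR-15a-3p, against 4 with DESeq2 or RLE factors and 5 with library totals. The abundant miR-16-5p stood at log2 0.48 ± 0.21 (adjusted p 0.0818). miR-23a-3p, the reference of the haemolysis index, stood at log2 -0.29 ± 0.15 (adjusted p 0.136).

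miRNAs with the same seed did not always have differences of the same sign. miR-146a-5p was lower by log2 -2.27, while miR-146b-5p stood at 104, 44.1, 42.8, 74.4 and 88.4 CPM in dwarf replicates 1 to 5 and 32.2, 44.8, 34.2, 38.7 and 56.0 CPM in normal replicates 1 to 5 (log2 0.78 ± 0.33 SE, adjusted p 0.0741), called without dwarf replicates 2 or 3 (adjusted p 0.0356 to 0.0366). miR-27a-3p was lower by log2 -0.59, while miR-27b-3p stood at 9675, 6264, 5732, 10775 and 12991 and 5935, 4615, 5572, 5038 and 5479 CPM (log2 0.77 ± 0.31 SE, adjusted p 0.0659), called without dwarf replicates 2 or 3, young dwarf replicate 3 or young normal replicate 1 (adjusted p 0.0322 to 0.0492). miR-222-3p was lower by log2 -1.31, whereas miR-221-3p, from the same cluster on the X chromosome, stood at 1243 to 1694 CPM in dwarf and 1367 to 1993 CPM in normal libraries (log2 -0.16 ± 0.16, adjusted p 0.466). No test compared the members of a pair, and the near-identical 3′ ends of miR-27a-3p and miR-27b-3p could let reads be split between them.

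The arms of a hairpin moved alike where both were called. Both arms were tested for 81 hairpins, and 28 of them had a called arm. In 11 both arms were called in the same direction and in 0 in opposite directions. In the other 17 a single arm was called, and the uncalled arm had the same sign in 12. Among the 5 of opposite sign was Mir335, where miR-335-5p stood at 50.1, 21.1, 18.03, 42.3 and 48.7 CPM in dwarf replicates 1 to 5 and 17.1, 26.9, 16.3, 22.9 and 24.03 CPM in normal replicates 1 to 5 (log2 0.75 ± 0.39 SE, adjusted p 0.134), opposite in sign to miR-335-3p.

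The same contrast in young mice gave 0 called miRNAs of 360 in edgeR (28 with a raw p under 0.05), and 6 in DESeq2. The genotype difference had the same sign at both ages for 52 of the 58 higher and 31 of the 37 lower miRNAs, against 261 of all 360. The test of the difference between ages called 2 miRNAs (0.556%), miR-34c-5p (log2 4.42 ± 0.998 SE, adjusted p 0.0472) and miR-34c-3p (log2 3.93 ± 0.85 SE, adjusted p 0.0472). Both calls were close to the threshold. In the 20 fits with 1 library left out, miR-34c-5p was not called in 17 and miR-34c-3p in 16 (adjusted p up to 0.122), and 15 of these fits called no miRNA. The difference between ages stayed positive in all of them, at log2 4.08 to 4.91 for miR-34c-5p and 3.23 to 4.53 for miR-34c-3p. In young mice miR-34c-5p stood at 2.85, 10.6, 41.4, 26.8 and 11.7 CPM in dwarf replicates 1 to 5 and 12.1, 11.3, 33.9, 4.503 and 29.3 CPM in normal replicates 1 to 5, so the young groups overlapped throughout (log2 0.036 ± 0.65). miR-34c-3p was lower in young dwarf libraries, at 1.897, 1.28, 1.85, 1.91 and 1.17 against 4.85, 2.93, 5.23, 1.97 and 3.88 CPM (log2 -1.19 ± 0.60, adjusted p 0.618).

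The Dlk1-Dio3 miRNAs did not pass that test, and their young values show a split like that of the old dwarf libraries. miR-127-3p stood at 150.4, 855, 1113, 807 and 976 CPM in young dwarf replicates 1 to 5 and 18.4, 641, 430.7, 54.3 and 873 CPM in young normal replicates 1 to 5 (difference between ages log2 3.77 ± 1.19 SE, adjusted p 0.15). Young normal replicates 1 and 4 were in or near the old normal range of 18.8 to 44.7 CPM and young dwarf replicate 1 was well below the rest of its group. miR-423-3p mirrored this, at 1327, 512, 279, 346 and 494.05 CPM in young dwarf and 1956, 381.4, 473, 1121 and 285 CPM in young normal replicates 1 to 5, highest in the same 3 libraries. miR-335-3p and miR-205-5p were at log2 -1.79 ± 0.45 and -1.48 ± 0.39 in young mice (adjusted p 0.183 and 0.183), close to their values in old mice.

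**Figure D5:**
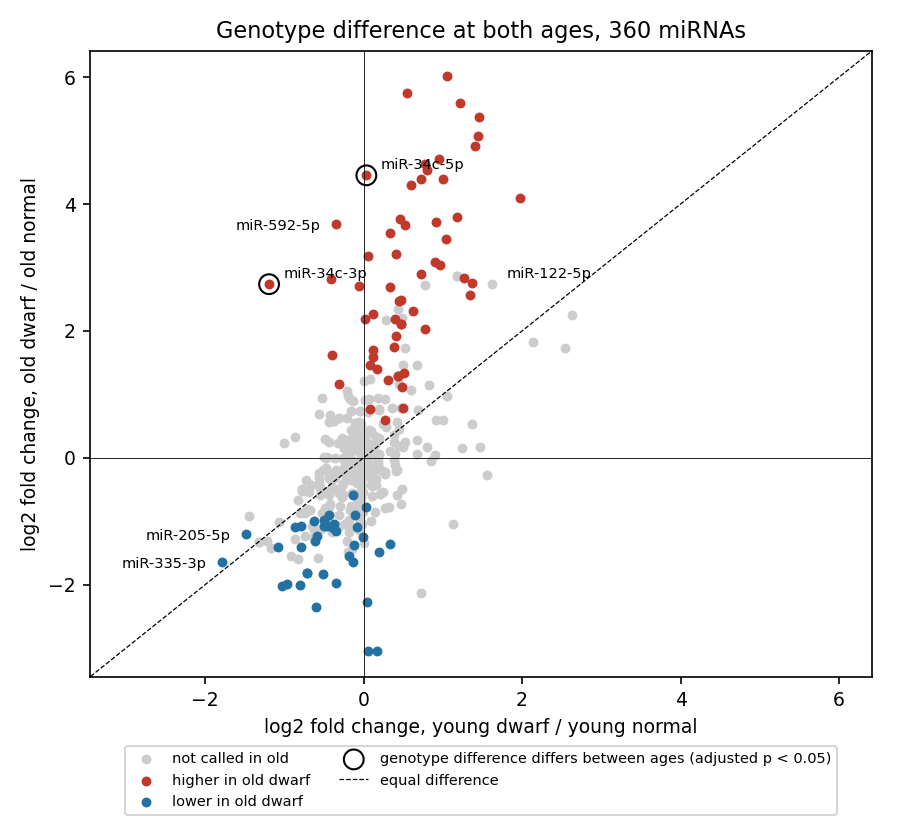
Log2 fold change of dwarf over normal serum in old mice (vertical axis) against that in young mice (horizontal axis) for 360 miRNAs, coloured by the call in old mice. Most red points lie above the dashed line of equal difference, and the 2 ringed miRNAs, miR-34c-5p and miR-34c-3p, are those whose genotype difference passed the test between ages.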

How the data were processed

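Serum RNA was extracted with miRNeasy and made into libraries with the TruSeq Small RNA kit, per the labels' protocols. The submitters' processing notes name Bowtie 0.12.8, bedtools, edgeR and GRCm38 (mm10), without roles. The authors deposited a table laid out like miRDeep2 quantifier output (per the file headers), with read counts per library and RPM values made by the authors; RPM values equal the count over the column sum to within 0.005 and were not tested. A pooled report of hairpins was not used, and 0 columns were left unused.

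Of 2241 rows for 1915 names, the row with the highest total was kept for each name (115 had several). Among names with at least 10 reads, 36 in 17 sets had identical counts. Counts were tested with edgeR 4.0.16 (quasi-likelihood, R 4.3.3) over all 20 samples with a coefficient per group, TMM factors and the default filter by group (minimum count 10), which kept 360 names and at least 99.9% of reads. Benjamini-Hochberg adjustment ran over the 360, with a threshold of 0.05. Standard errors are the log2 difference divided by the root of F. The test was checked on simulated data. Fits with DESeq2 1.42.0, other scalings, filters and covariates, and with each library left out, served as alternatives. The haemolysis index used counts plus 1 and a 2-sided exact permutation test.

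Most named miRNAs were taken from 134 picked by a rule, and not all of the 134 are given. The rule took the 15 higher and 15 lower with the smallest p at a mean of at least 10 CPM. It added the 5 most abundant called in each direction, up to 4 per list and the 5 smallest p of the test between ages. It also took miR-122-5p, miR-486a-5p, miR-451a, miR-16-5p and miR-23a-3p, and the other arms of all these. The comparison, lists and tests were chosen with earlier results of these data known, so the lists give no independent support. Positions (341 of 360 names) are from GENCODE M21, sequences (311 of 360) from RefSeq. Reads without molecular identifiers are not independent molecules. tRNA fragments were not analysed here.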

Additional observations from a re-analysis of the deposited data

Results flagged for a closer look

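Among the groups of 5 libraries looked at, 1 library stood far from the other 4 in 12 (8.11%). The rule flags about 1 in 20 groups of independent, normally distributed values. CPM values of miRNAs in the same library are not independent and may be skewed, so the share expected here is not known. Old normal replicate 1 was the library for 5 of them: miR-146a-5p (1896 CPM), miR-425-5p (2168 CPM), miR-5107-5p (77.4 CPM), miR-155-5p (51.3 CPM) and miR-3473e (50.8 CPM). miR-3473e, chosen after its values were seen, was nevertheless higher in old dwarf serum, at 131, 30.1, 48.5, 108 and 140.6 CPM in dwarf replicates 1 to 5 and 50.8, 19.7, 20.3, 25.1 and 25.4 CPM in normal ones (log2 1.69 ± 0.57 SE, adjusted p 0.0356), a call lost without dwarf replicates 1, 4 or 5 or normal replicates 2, 3, 4 or 5 (adjusted p 0.0532 to 0.0902). Old normal replicate 4 was high for miR-133a-3p (3969 CPM), miR-1a-3p (1.63 CPM) and miR-541-5p (13.6 CPM). Old normal replicate 2 was high for miR-423-5p (7762 CPM) and replicate 3 for miR-122-5p (37.0 CPM). Old dwarf replicate 1 was high for miR-592-5p (172 CPM) and replicate 3 for miR-205-5p (113 CPM).

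The genotype difference was larger in old than in young mice for miR-34c-5p (by log2 4.42) and miR-34c-3p (by log2 3.93), by the test of the difference itself (adjusted p 0.0472 for both). No miRNA passed this test in 15 of the 20 fits with 1 library left out, nor with upper-quartile factors, library totals, the 10 CPM minimum, summed precursor rows, the covariate or the replicate block.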

How the results depend on the processing

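The count of 58 higher miRNAs was 93 with DESeq2, 38 with a mean of at least 10 CPM, 33 with the old samples alone and 0 with the haemolysis index as a covariate, and 39 to 78 with 1 library left out. The count of 37 lower miRNAs was 23 with the 10 CPM minimum and 0 with the covariate, and 12 to 65 with 1 library left out (14, 65, 14 and 12 without dwarf replicates 1, 2, 4 and 5, 20, 24 and 24 without normal replicates 1, 2 and 4, 23 without young dwarf replicate 2). The 2 calls of the test between ages were 20 with DESeq2, 1 with RLE factors, 13 with no filter, and 0 with upper-quartile factors, library totals, the 10 CPM minimum, summed precursor rows, the covariate or the replicate block, and 0 to 3 with 1 library left out (0 in 15 of 20 fits); this test needs the young samples and was not run in the old samples alone.

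With the covariate the difference of miR-30a-5p went from log2 0.77 to 0.27, of miR-191-5p from -1.10 to -0.55, of miR-127-3p from 4.72 to 3.99, of miR-34c-5p from 4.45 to 3.75 and of miR-146a-5p from -2.27 to -2.83. A set of 72 miRNAs, most of them given above with values, was followed across the alternative fits. Sign changes among these 72 touched 2, both not called: miR-221-3p was at log2 0.11 with library totals and miR-451a at log2 -0.072 with the covariate. The covariate is built from miR-451a itself and so removes its difference by construction. Library totals moved the median of all miRNAs to log2 0.23, with 78 higher and 41 lower. The haemolysis index kept its call in every alternative run. Of the 54 called among these 72 miRNAs, 54 stayed called with DESeq2, 53 with RLE or upper-quartile factors, 49 with library totals, 47 with no filter, 50 with the replicate block, 41 of 47 with the 10 CPM minimum and 38 of 43 in the old samples alone. All leave-one-out fits called 35 of the 58 higher and 10 of the 37 lower miRNAs. Whether replicate numbers pair the old samples was not tested (correlations of deviations -0.0169, 0.235, -0.0988, 0.265 and -0.0894, of mixed sign). A replicate block gave 56 higher and 36 lower, of which 50 and 35 were shared. Depth limits the scarce miRNAs: 78 of the 360 tested had means under 10 CPM in both old groups.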

Other observations

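miR-1a-3p, a muscle miRNA, stood at 3.77, 1.43, 1.69, 0.682 and 3.48 CPM in old dwarf replicates 1 to 5 and 0, 0, 0.397, 1.63 and 0 CPM in old normal ones (log2 2.35 ± 1.10 SE, adjusted p 0.103), called without normal replicate 4 (adjusted p 0.0489). These levels are low for so abundant a muscle miRNA, and whether its reads were lost in counting was not tested.

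The median GC content of mature sequences was 50% for 52 higher miRNAs, 53.5% for 32 lower ones and 47.8% for all 311 with a sequence. On the X chromosome 33 miRNAs were tested, of which 2 were higher and 6 lower. Of all 360, 58 were higher (16.1%) and 37 lower (10.3%). Of the 95 called miRNAs, 35 were on no list.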
